A study of Mus musculus with 6 samples.

Results

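The interferon gamma, IL-12 and IL-18 axis was followed here through 9 genes: the cytokine gene Ifng and its transcription factor gene Tbx21, the inducer genes Il12b and Il18, and the receptor genes Il12rb1, Il12rb2, Il18r1, Ifngr1 and Ifngr2. They were taken by symbol from the feature table, and all 9 of 9 were found among its 33696 features. Single-cell RNA libraries were made from mammary tumours of mice, of which live cells with CD45, the common leukocyte antigen, had been sorted. According to its title the study concerns MERTK inhibition and cyclophosphamide in triple negative breast cancer. There are 6 libraries, each alone under its treatment label: MRX, CTX and Combined, the 2 day 18 libraries ctxd18t and combod18t, and VC. The labels give neither the agents behind these names nor the strain, age or number of mice, and d18 is read here as day 18. By the protocol, VC, MRX, CTX and Combined were multiplexed in 1 run, and it names no run for the d18 libraries, so day and run cannot be told apart. It also says that mice of day 7 got their treatment 3 hours before harvest, without naming libraries. VC was not analysed here.

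Interferon gamma is the main cytokine by which natural killer (NK) cells and type 1 T cells act on macrophages and other cells. Dendritic cells and macrophages induce it with IL-12, of which Il12b encodes the p40 chain, and with IL-18, which is stored as a precursor and released after cleavage by caspase-1. IL-12 is read through a receptor of the chains Il12rb1 and Il12rb2 and acts through STAT4. IL-18 binds the chain encoded by Il18r1 and signals with its partner, encoded by Il18rap. T-bet, the product of Tbx21, is the transcription factor of type 1 lymphocytes. Interferon gamma itself is read by the ligand-binding chain IFNGR1 and the signalling chain IFNGR2, through the kinases JAK1 and JAK2.

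After filtering, 25653 cells remained, from 3826 in ctxd18t to 8520 in CTX, at a median of 6239 to 8907 UMIs (unique molecules) per cell. They formed 47 clusters, and the 9 genes and the other genes of the pathway were kept out of the clustering. Marker lists gave the class names, all of which end in "like". CD8 T-like cells comprise effector and resting clusters, CD4 T-like cells activated and resting ones without the regulatory (Treg-like) cells, and monocyte-macrophage-like cells both of those classes. Effector and activated mean here only that a cluster scored under 0.5 for resting markers. In the NK-like cells all 9 of 9 NK markers had counts in each library, at a sum of 4387 to 8049 CPM (counts scaled to 1000000 counts of the class), while the 10 T markers summed to 911 to 1365 CPM. CTX and combod18t shared 34 cell barcodes and Combined and ctxd18t shared 21, while no other pair of libraries shared any. Whether these are the same cells, crossed labels or the same set of barcodes used again in another run was not tested. In combod18t, 32.8% of the cells were resting CD4 T-like.

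The promoter sequences of Ifng and of Il12rb2 are shown as examples. Both genes were transcribed in NK-like and effector CD8 T-like cells and each held a match to a motif of the axis. The same holds for Il18r1, whose sequence is not shown. RefSeq promoter windows (build GRCm38.p6, 250 bases before the start site) were found for 8 of the 9 genes, with none for Il12rb1. Capitals mark the interferon gamma activated site TTCNNNGAA, which reads the same on both strands, and the T-box core TCACAC or its reverse complement GTGTGA. The matches do not overlap.
Ifng, chr10:118440796-118441045, plus strand: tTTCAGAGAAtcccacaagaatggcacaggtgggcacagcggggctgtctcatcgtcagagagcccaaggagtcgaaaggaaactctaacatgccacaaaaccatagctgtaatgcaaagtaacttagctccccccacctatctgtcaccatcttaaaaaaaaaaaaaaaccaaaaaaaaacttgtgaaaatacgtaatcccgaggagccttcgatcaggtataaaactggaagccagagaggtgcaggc
Il12rb2, chr6:67376189-67376438, minus strand: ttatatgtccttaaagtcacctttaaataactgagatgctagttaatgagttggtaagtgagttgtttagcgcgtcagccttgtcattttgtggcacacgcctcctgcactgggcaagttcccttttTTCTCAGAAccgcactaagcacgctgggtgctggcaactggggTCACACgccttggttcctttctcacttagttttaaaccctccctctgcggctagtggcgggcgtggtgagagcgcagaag
The activated site stands at -249 in Ifng and at -123 in Il12rb2, and the T-box core at -80 in Il12rb2. Of all 32851 promoter windows in the table, 7.02% held the activated site and 12.3% the T-box core, so that a match by letters is common. Il18r1 held the activated site in 1 of its 3 windows, at -219 and at -152.

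Ifng transcripts lay in NK-like cells, effector CD8 T-like cells, activated CD4 T-like cells and a small set of T clusters in which CD8 and CD4 cells were mixed. In NK-like cells Ifng stood at 29.4 CPM in MRX, 69.4 in CTX and 142 in Combined, and at day 18 at 45.7 for ctxd18t and 24.4 for combod18t. Combined was the highest of the 5. By the d18 labels as given combod18t was the lowest, but its 29 counts do not set it apart from MRX with 163. In effector CD8 T-like cells Ifng stood at 65.8 CPM in MRX, 82.6 in CTX, 70.9 in Combined, 116 for ctxd18t and 90.6 for combod18t, a narrower range that overlapped that of the NK-like cells. Activated CD4 T-like cells held 18.3, 71.1, 163, 76.5 and 36.0 CPM in the same order of libraries. Resting CD8 T-like cells held 0.299 to 11.3 CPM and Treg-like cells 6.31 to 24.3. In gamma-delta T-like cells a single Ifng count was found in all 5 libraries together, and none was found in conventional type 1 dendritic (cDC1-like) cells.

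The highest Ifng level of any class was in the mixed T clusters, 463 cells in 3 clusters. The largest, of 348 cells, was led by Ccl1, Penk, Nrgn, Tnfsf11 and Cd70, and Ifng was among its 10 leading genes. Ifng stood there at 705 CPM in MRX, 728 in CTX, 1855 in Combined, 243 for ctxd18t and 182 for combod18t. Every one of these values lay above that of the NK-like and effector CD8 T-like cells of the same library. Few cells carried these levels: without the 5 cells with the most Ifng counts in each library the mixed T clusters held 227, 445, 320, 109 and 76.95 CPM in the order above. The values of the d18 libraries then lay below those of all effector CD8 T-like cells (116 and 90.6 CPM), but above those of effector cells without their own 5 top cells (80.3 and 49.4 CPM). Cells with a Cd4 UMI and no CD8 UMI made up 58.8% of the clusters and held 785 CPM of Ifng, and those with a CD8 UMI and no Cd4 UMI made up 25.7% and held 929 CPM. Over all libraries 52.2% of the former and 48.7% of the latter had a UMI. Within libraries the levels lay further apart and in both directions: cells with CD8 held 743 CPM against 179 for those with Cd4 in MRX, 901 against 724 in CTX, 7570 (5 cells) against 1464 in Combined, 98.4 against 406 in ctxd18t and 175 against 281 in combod18t. Tbx21 stood at 51.3 to 109 CPM in these clusters, against 23.1 to 52.3 CPM in activated CD4 and 91.1 to 148 CPM in effector CD8 T-like cells. In CTX the mixed T clusters lay above the effector CD8 T-like cells.

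**Figure D1:**
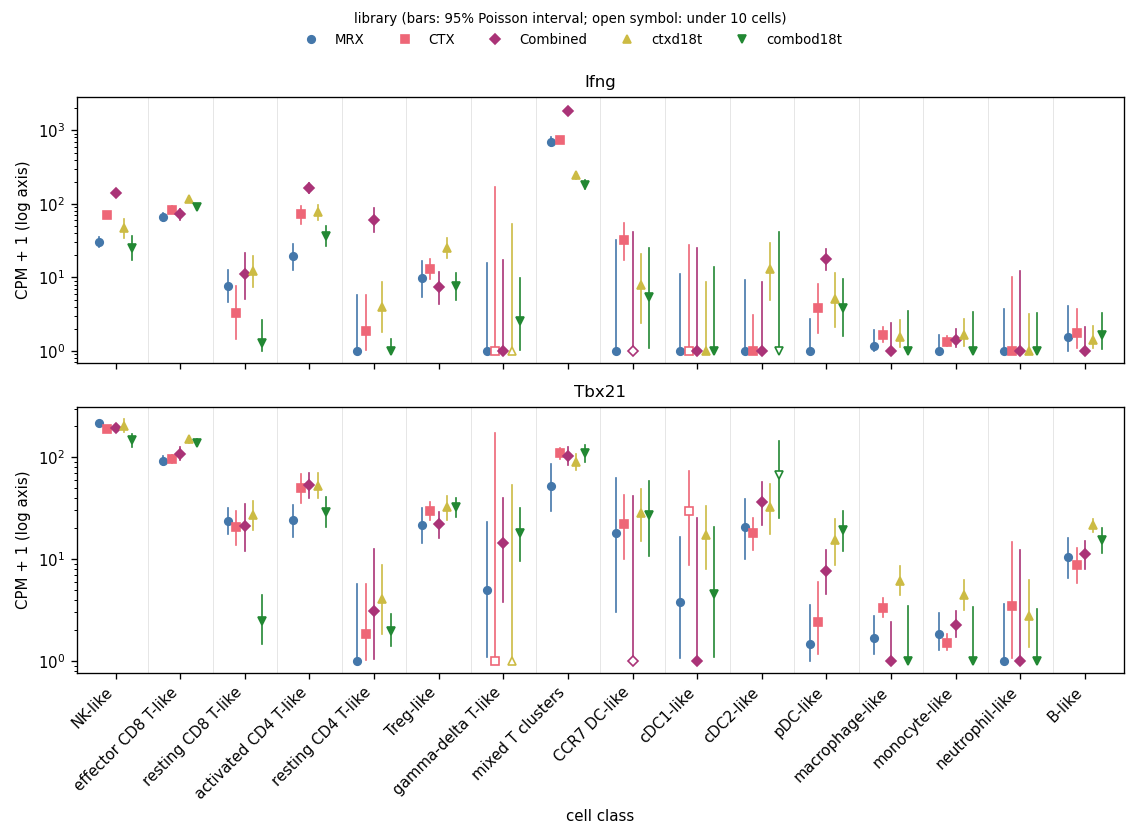
Levels of Ifng and Tbx21 (CPM + 1, log axis) in 16 cell classes (x axis), 1 symbol per library with its 95% Poisson interval, open where the sum rests on fewer than 10 cells. Ifng is highest in the mixed T clusters of every library, reaching 1855 CPM in Combined, and Tbx21 is highest in NK-like cells, at 146 to 214 CPM.

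Few cells held most of the Ifng counts. In NK-like cells a UMI of Ifng was found in 12.02% of cells in MRX, 16.1% in CTX, 25% in Combined, 18.9% for ctxd18t and 11.6% for combod18t. With each cell thinned to 1000 UMIs these shares were 2.60%, 3.92%, 7.35%, 4.85% and 1.80%, the share in Combined having a 95% Clopper-Pearson interval of 5.76% to 9.21% and that in CTX one of 2.53% to 5.78%. Combined was again the highest. By the labels as given combod18t was the lowest, at a share that rests on very few cells and is not set apart from that of MRX. In thinned B-like cells, which should lack the transcript, the share was 0% to 0.348% at a median depth of 4007 to 8464 UMIs, against 7586 to 9145 in NK-like cells. Effector CD8 T-like cells held a UMI in 3.68% to 7.77% of thinned cells and the mixed T clusters in 8.33% to 28.1%. Within NK-like cells the single cell with the most Ifng counts held 9.20% of them in MRX, 25.6% in CTX, 18.7% in Combined, 33.3% for ctxd18t and 44.8% for combod18t.

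The libraries drew their Ifng from different cells. The kept cells held 703 Ifng counts in MRX, 3152 in CTX, 3403 in Combined, 1201 for ctxd18t and 810 for combod18t, which is 19.5, 34.3, 80.7, 26.7 and 20.7 CPM of all counts of the kept cells. NK-like cells held 36.4% of these counts in Combined, 23.2% in MRX, 11.4% in CTX, 3.50% for ctxd18t and 3.58% for combod18t. Effector CD8 T-like cells held 48.1% and 48.5% in the d18 libraries and 38.5% in MRX, but 10.7% in CTX and 3.82% in Combined. The mixed T clusters held 55.6% in CTX and 49.5% in Combined, against 24.9% to 29.3% in the other 3. Clusters that carried markers of 2 classes, left out of the named ones, held 17.9% in CTX, more than NK-like or effector CD8 T-like cells there, and 0.427% in MRX, 2.65% in Combined, 9.74% for ctxd18t and 14.6% for combod18t. Few cells set these shares in Combined, where 5 mixed T cells held 1423 of the 3403 counts. Without the 5 top mixed T cells of each library the mixed clusters held 13.3% in Combined, 42.5% in CTX and 9.14% to 12.7% in the other 3, and NK-like cells 62.5% in Combined and 4.1% to 29.8% in the other 4. These shares follow both the level per cell and the number of cells sorted, NK-like cells being 944 of 4285 in Combined and 112 of 3853 in combod18t.

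**Figure D2:**
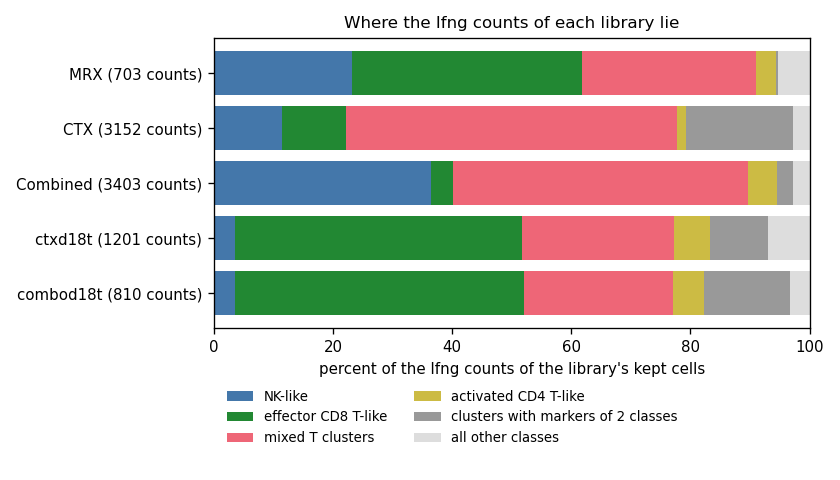
Share of each library's Ifng counts (percent, x axis) held by NK-like cells, effector CD8 T-like cells, mixed T clusters, activated CD4 T-like cells, clusters with markers of 2 classes and all other classes, 1 bar per library. NK-like cells hold 36.4% in Combined and effector CD8 T-like cells 48.1% and 48.5% in ctxd18t and combod18t.

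Tbx21 was highest in NK-like cells, at 214 CPM in MRX, 188 in CTX, 191 in Combined, 203 for ctxd18t and 146 for combod18t. Effector CD8 T-like cells held 91.1, 95.1, 107, 148 and 138 CPM, so that NK-like cells were above them in each of the 5 libraries, most narrowly in combod18t. In effector CD8 T-like cells with an Ifng UMI a Tbx21 UMI was also found in 46.0% (MRX), 53.7% (CTX), 64.3% (Combined), 74.7% (ctxd18t) and 66.7% (combod18t), against 29.1%, 39.2%, 41.1%, 57.6% and 55.6% of those without. The cells with Ifng were also deeper, as in ctxd18t with a median of 11963 UMIs against 8079, and the part of depth in this difference was not tested. In NK-like cells the same shares were 69.2% to 76.7% with Ifng and 61.6% to 74.4% without.

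Between classes the libraries served as replicates, although their treatments differ, in edgeR's quasi-likelihood test with the library as a block and Benjamini-Hochberg adjustment over all genes at a threshold of 0.05. The fit held the sums of all classes, which share 1 estimate of the spread. Nothing says how many mice lie behind a library. These p-values thus measure the spread between the 5 libraries alone, pooled over all classes and not only those compared. NK-like against CD8 T-like cells gave 3 called genes of the 9, in a comparison that called 23.8% of 13120 genes. Il12rb2 was higher in NK-like cells by 2.29 ± 0.263 (log2, SE, n = 5 libraries; edgeR adjusted p = 4.08e-10), Tbx21 was higher by 1.21 ± 0.284 (edgeR adjusted p = 0.000789), and Ifngr2 differed by -3.56 ± 0.377 (edgeR adjusted p = 4.09e-11). Ifng did not pass, at -0.37 (edgeR adjusted p = 0.55), nor did Ifngr1 at 0.46 (edgeR adjusted p = 0.0764) or Il18r1 at 0.57 (edgeR adjusted p = 0.325). At a finer clustering, where clusters led by Penk, Tnfsf11 and Ccl1 (247 cells) and by Xcl1 and Ccl1 (104 cells) counted as activated CD4 and effector CD8 T-like cells, Ifng passed at -1.13 (edgeR adjusted p = 0.0325).

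Effector against resting CD8 T-like cells gave 4 called genes of the 9, where 38.1% of all genes were called. Ifng was higher in the effector clusters by 4.11 ± 0.54 (edgeR adjusted p = 2.13e-08), Tbx21 by 2.72 ± 0.386 (edgeR adjusted p = 6.88e-08) and Il12rb1 by 1.90 ± 0.447 (edgeR adjusted p = 5e-04). Ifngr2 went the other way, at -2.97 ± 0.322 (edgeR adjusted p = 6.43e-11). The effector clusters thus held more transcript of the cytokine and less of the signalling chain of its receptor. Il12rb2, at 39.4 to 76.0 CPM in effector and 31.6 to 67.3 CPM in resting clusters, overlapped between them.

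CD8 against CD4 T-like cells gave 3 called genes of the 9, where 20.1% of all genes were called. Tbx21 was higher by 2.30 ± 0.327 (edgeR adjusted p = 2.75e-07) and Ifngr2 differed by -2.54 ± 0.292 (edgeR adjusted p = 1.32e-09). Ifng was higher by 1.32 ± 0.404 (edgeR adjusted p = 0.0142), but the call was lost in 8 alternatives, among them DESeq2 (adjusted p = 0.162), no library block, and leaving out MRX, CTX, ctxd18t or combod18t. The direction turned at a finer clustering (-0.06, edgeR adjusted p = 0.979). Against Treg-like cells, CD8 T-like cells were higher in 3 of the 9 genes and lower in none, where 18.4% of all genes were called. These were Ifng at 2.70 ± 0.46 (edgeR adjusted p = 1.25e-05), Il12rb2 at 2.60 ± 0.314 (edgeR adjusted p = 3.84e-09) and Tbx21 at 1.73 ± 0.312 (edgeR adjusted p = 2.32e-05).

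Each label has 1 library and no test was made between treatments, so ratios of CPM + 1 are given on the log2 scale with a 95% counting interval, and a gene is called where its ratio is at least 1 in size and it is expressed, with at least 100 counts over the pair and 50 CPM in either. In NK-like cells Ifng was 1.02 [0.86, 1.20] higher in Combined than in CTX, from 1237 and 360 counts. It was the only gene of 3730 expressed to be called higher there, 2 others being called lower, so that 0.0804% of genes were called. The call was narrow, since the interval spans 1. It was lost when the median log2 shift of the expressed genes (0.0509) was taken off, and with 10 CPM added in place of 1. Of the 5 members expressed in these cells 1 was called, the other 4 lying between -0.14 (Il18r1) and 0.12 (Ifngr1). Without the 5 cells with the most Ifng counts in each library the levels were 91.0 CPM in Combined and 36.7 in CTX and the ratio was 1.29, while the mean over cells of each cell's CPM gave 0.63. CTX in turn was 1.21 [0.97, 1.51] above MRX in NK-like cells (0.729% of genes called) and Combined was 2.23 [2.03, 2.51] above MRX (1.28% called).

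The T cells did not share this pattern in a form that held without single cells. In effector CD8 T-like cells the Ifng ratio of Combined to CTX was -0.22 [-0.52, 0.08], with 0 of 5 expressed members and 0.236% of genes called, though it was 0.86 at a finer clustering. In the mixed T clusters it was 1.35 [1.25, 1.45], where 1.66% of genes were called, but 5 cells of Combined held 84.4% of its 1686 counts, and without them and their 5 counterparts in CTX the ratio was -0.48. In activated CD4 T-like cells it was 1.18 [0.74, 1.67], where 0.831% were called. There 1 cell held 113 of the 165 counts of Combined, and without the top 5 cells the ratio was 0.05.

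At day 18 the Ifng ratios of combod18t to ctxd18t were below 0 in the 5 lymphocyte classes compared. Their direction rests on the 2 d18 labels as given: with those labels exchanged, which the shared barcodes raise and which was not tested, every ratio between the d18 libraries here and further on would keep its size and turn its sign. They were -0.36 [-0.55, -0.17] in effector CD8 T-like cells (0.694% of genes called), -0.41 [-0.68, -0.15] in the mixed T clusters (2.8% called) and -1.07 [-1.67, -0.52] in activated CD4 T-like cells (2.32% called). In NK-like cells the ratio was -0.88 [-1.64, -0.19], from 29 and 42 counts in 112 and 106 cells, too few for the gene to count as expressed, as were the 18 and 39 counts of Treg-like cells (-1.73). Of the 3 classes in which Ifng was expressed, only activated CD4 T-like cells reached the size of a call. Each is a difference between 2 libraries, with no replicate check.

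**Figure D3:**
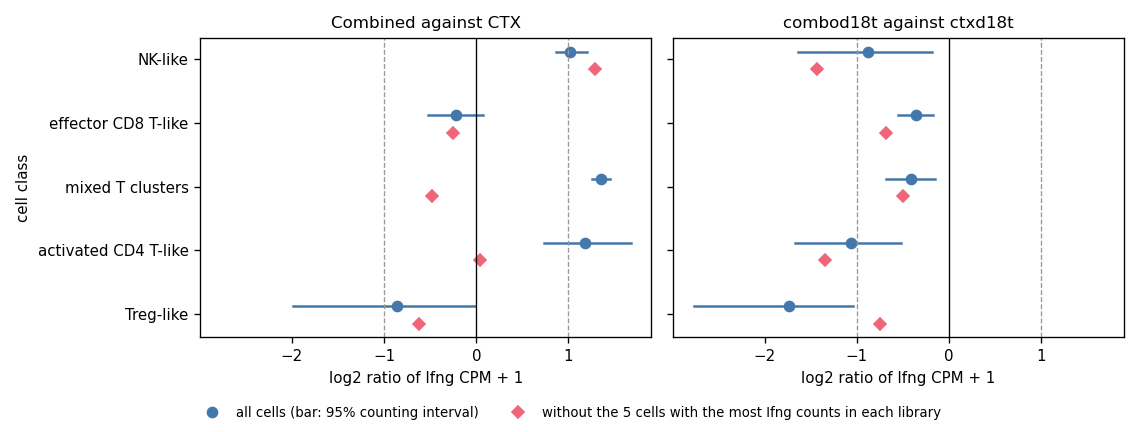
Log2 ratio of Ifng CPM + 1 (x axis) in 5 cell classes (y axis) for Combined against CTX and combod18t against ctxd18t, over all cells with the 95% counting interval (circles) and without the 5 cells with the most Ifng counts in each library (diamonds). The NK-like ratio of Combined to CTX is 1.02, with an interval that spans 1, and 1.29 without the top cells. That of the mixed T clusters goes from 1.35 to -0.48.

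Il12b was highest in CCR7 DC-like cells in each of the 5 libraries. These are the migratory dendritic cells marked by Ccr7, Fscn1 and Ccl22. All 10 markers of the class had counts for ctxd18t and 9 of 10 in each of the other 4 libraries, where Apol7c was at 0. It stood there at 806 CPM in MRX (14 cells), 141 in CTX (33 cells), 2809 in Combined (8 cells), 2156 for ctxd18t (23 cells) and 3080 for combod18t (10 cells). CTX was the lowest by far, but the cells were few. A UMI of Il12b was found in 6 of 14, 9 of 33, 3 of 8, 11 of 23 and 6 of 10 of these cells, and the top cell alone held 42, 22, 178, 348 and 346 counts. The ratio of CTX to MRX was -2.51 where 11.9% of genes were called. It rests on few cells, since without the 5 top cells of each library 1 count was left in MRX and 5 in CTX, too few to compare. The ratio of combod18t to ctxd18t was 0.51 [0.37, 0.66], where 8.13% were called.

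By counts, the CCR7 DC-like cells held 32.3% of the Il12b of MRX, 6.07% of that of CTX, 74.6% of that of Combined, 60.2% of that of ctxd18t and 76.6% of that of combod18t, although they were at most 33 cells. Clusters that carried markers of 2 classes and were left out of the named ones held 9.88% to 38.8%.

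Il12b was lower in the other classes. In cDC1-like cells it stood at 13.9 CPM in MRX, 42.7 in CTX, 0 in Combined, 34.8 for ctxd18t and 56.6 for combod18t, from 0 to 17 counts a library. Against these, CCR7 DC-like cells were higher by 5.45 ± 0.963 (log2, n = 4 libraries each; edgeR adjusted p = 1.84e-05), although DESeq2 gave 5.86 with an adjusted p of 0.116. Macrophage-like cells held 3.41, 7.03, 14.3, 25.4 and 27.1 CPM in the order above, in 3 of 676, 30 of 1455, 5 of 214, 10 of 321 and 2 of 114 cells. In cDC2-like cells Il12b stood at 63.6 CPM in MRX and 125 in CTX, and in plasmacytoid (pDC-like) cells at 43.3 and 73.1, while Combined had no count in 33 and 169 cells of these classes. The d18 libraries held 3 counts in cDC2-like cells, all of them in ctxd18t, and none in pDC-like cells. In CTX the 222 Il12b counts of the cDC2-like cells lay in 9 of 131 cells, which held on average 34.7 counts of the CCR7 DC markers against 7.50 in the cells without Il12b. In macrophage-like cells a Ccr7 UMI was found in 2 of 3, 9 of 30, 0 of 5, 5 of 10 and 1 of 2 cells with Il12b, in the order above, and in 1.63% to 8.93% of those without. The p40 chain has a partner in each of IL-12 and IL-23. The p35 gene Il12a gave 3 counts in all CCR7 DC-like cells, and Il23a gave none.

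Il18 was a gene of myeloid cells. It stood at 63.6, 52.4, 47.3, 48.0 and 56.3 CPM in monocyte-like cells (MRX, CTX, Combined, ctxd18t, combod18t), at 39.8 to 89.1 CPM in neutrophil-like cells and at 22.5 to 29.0 CPM in macrophage-like cells. In monocyte-like cells, where it was expressed in all 4 pairs of libraries compared, the ratios lay between -0.42 (Combined to MRX) and 0.22 (combod18t to ctxd18t) and none was called. T-like, NK-like, B-like and pDC-like cells held under 5 CPM. In cDC1-like cells Il18 stood at 24.8 to 71.2 CPM, and they were higher than cDC2-like cells by 1.93 ± 0.466 (edgeR adjusted p = 0.00247), the single called gene of the 9 where 11.9% of all were called. That call was lost with at least 30 cells a sum and at a finer clustering.

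CCR7 DC-like against cDC1-like cells gave 5 called genes of the 9, where 26% of all genes were called. Beside Il12b, Il12rb2 was higher by 3.00 ± 0.553 (edgeR adjusted p = 2.43e-05), standing at 67.95 to 175 CPM in the CCR7 DC-like sums tested. Il18 differed by -3.73 ± 0.724 (edgeR adjusted p = 5.95e-05) and Ifngr1 by -1.53 ± 0.259 (edgeR adjusted p = 5.71e-06). Il18r1 was called higher (edgeR adjusted p = 0.00747) from 0 to 65.3 CPM against 0 to 2.05 CPM (1 count) in the sums tested. Its direction turned at a finer clustering. cDC1-like against monocyte-macrophage-like cells gave 1 called gene, Ifngr2 at -0.95 ± 0.34 (edgeR adjusted p = 0.0289), where 28.2% of all were called. That call was lost in 7 alternatives, among them leaving out MRX, Combined or ctxd18t.

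**Figure D4:**
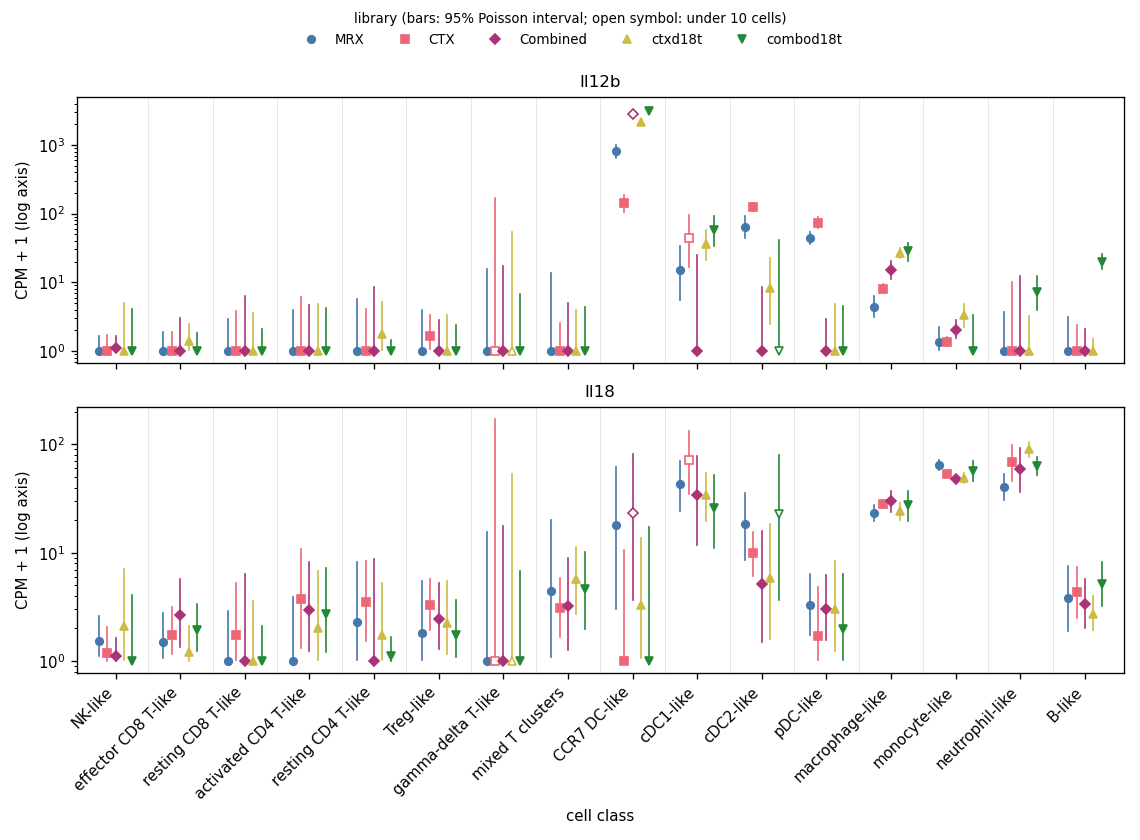
Levels of Il12b and Il18 (CPM + 1, log axis) in 16 cell classes (x axis), 1 symbol per library with its 95% Poisson interval, open where the sum rests on fewer than 10 cells. Il12b peaks in CCR7 DC-like cells, at 141 to 3080 CPM, while Il18 is spread over monocyte-like, neutrophil-like, macrophage-like and cDC1-like cells. The Il12b value of B-like cells in combod18t comes from 1 cell with 59 counts.

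The receptor for IL-12 was highest in NK-like cells by its Il12rb2 chain. Il12rb2 stood at 185 CPM in MRX, 218 in CTX, 233 in Combined, 531 for ctxd18t and 335 for combod18t in these cells, and at 39.4 to 76.0 CPM in effector CD8 T-like cells. The d18 libraries lay above the other 3. In thinned NK-like cells a UMI was found in 15.7%, 17.97%, 23.0%, 36.9% and 27.0% of cells. Treg-like cells held 3.19 to 15.8 CPM and B-like cells 0.299 to 3.55. In activated CD4 T-like cells Il12rb2 stood at 94.1 CPM for ctxd18t and 26.6 for combod18t, a ratio of -1.79 [-2.46, -1.22]. The partner chain Il12rb1 stood at 7.57 to 15.3 CPM in NK-like and 9.72 to 19.1 CPM in effector CD8 T-like cells.

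Gamma-delta T-like cells, 138 in all, had a receptor pattern of their own. Il12rb1 stood there at 47.4 CPM in MRX, 75.9 in Combined and 35.9 in combod18t, the 3 libraries with at least 10 such cells, and Il18r1 at 1269, 961 and 1118 CPM. Il12rb2 was at 0, 0 and 10.9 CPM. Against CD8 T-like cells 6 of the 9 genes were called, 3 in each direction, where 12.5% of all genes were called. Ifngr2 was higher by 2.87 ± 0.34 (edgeR adjusted p = 2.2e-09), Il12rb1 by 2.40 ± 0.444 (edgeR adjusted p = 5.35e-05) and Il18r1 by 2.03 ± 0.454 (edgeR adjusted p = 0.00084). Il12rb2 differed by -3.36 ± 0.656 (edgeR adjusted p = 0.000115) and Tbx21 by -2.62 ± 0.594 (edgeR adjusted p = 0.000995), and Ifng was called lower (edgeR adjusted p = 0.00158) from its single count. Il23r, the chain that pairs with Il12rb1 in the IL-23 receptor, stood at 625, 777 and 996 CPM in these 3 libraries, and at 0 to 0.461 CPM in effector CD8 T-like cells. It is not a member and was picked after its values were seen.

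Il18r1 was present in every T class and in NK-like cells. Activated CD4 T-like cells held 728, 718, 652, 718 and 703 CPM (MRX, CTX, Combined, ctxd18t, combod18t), nearly the same in all libraries, and resting ones 127 to 147 CPM. In NK-like cells it stood at 297, 319, 289, 659 and 587 CPM and in Treg-like cells at 476, 357, 363, 627 and 661 CPM. Both classes were higher in the d18 libraries than in the other 3. Effector CD8 T-like cells held 213, 282, 323, 358 and 497 CPM. In pDC-like cells Il18r1 stood at 5.47, 36.2, 88.1, 56.1 and 78.2 CPM, the ratio of Combined to CTX being 1.26, where 3.05% of genes were called, but -0.51 when likely doublets were not removed. Of the NK-like cells with an Il12rb2 UMI, 70.6% to 91.9% also held an Il18r1 UMI, against 66.3%, 48.4%, 59.1%, 23.1% and 84.6% of those without in MRX, CTX, Combined, ctxd18t and combod18t. The gap was small in MRX and combod18t, and the 23.1% rests on 13 cells. Monocyte-like, macrophage-like and neutrophil-like cells held at most 19.1 CPM.

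The 2 chains of the interferon gamma receptor were distributed differently. Ifngr1 was present in all classes and highest in NK-like cells and the T classes other than the mixed clusters, at 1041, 974.8, 1056, 1846 and 1723 CPM in NK-like cells and 973, 735, 797, 1048 and 1028 in effector CD8 T-like cells. Monocyte-like cells held 380, 198, 209, 543 and 579 CPM, so that CTX and Combined were the lowest there. The same 2 libraries were the lowest in macrophage-like cells (188 and 209 CPM against 298 to 341). They were also the lowest in cDC1-like cells (249 and 185 CPM against 439 to 511), but from only 9 and 10 cells. The libraries filled different monocyte-like clusters: one led by Ly6i and Lyz2 held 201 cells of MRX, 2121 of CTX, 791 of Combined, 42 of ctxd18t and 21 of combod18t, and one led by Plcb1, Thbs1 and Vcan held 425, 241, 58, 317 and 79. Within the first Ifngr1 stood at 335.5, 200, 201, 441.5 and 453 CPM, CTX and Combined again being the lowest. Within the second it stood at 430, 323, 431, 592 and 633 CPM, so that Combined was level with MRX there. In a smaller cluster led by Rsad2 and Cxcl11 it stood at 205 CPM in MRX, 152 in CTX, 191 in Combined and 377 in ctxd18t. The intervals of MRX and Combined overlapped there. In the mixed T clusters, where Ifng was highest, Ifngr1 stood at 161 to 594 CPM, below all other T classes of the same library, and in MRX (161 CPM) and Combined (186 CPM) also below monocyte-like and macrophage-like cells.

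Ifngr2 was lowest in NK-like cells, at 1.81 CPM in MRX, 1.54 in CTX, 3.90 in Combined, 6.53 for ctxd18t and 10.9 for combod18t. Effector CD8 T-like cells held 6.32, 6.37, 7.09, 19.1 and 50.9 CPM. Resting CD4 T-like cells held 332 to 514 CPM, B-like cells 275 to 336 and monocyte-macrophage-like cells 190 to 267. The mixed T clusters held 4.16 to 50.4 CPM, so that these 3 Ifng-holding classes were the 3 with the least Ifngr2. The other class with Ifng, activated CD4 T-like cells, did not share this and held 94.1 to 153 CPM of Ifngr2. Over 79 class sums the Pearson correlation of the levels of both genes was -0.704, given as a description because the sums share libraries. In combod18t Ifngr2 was 1.37 [1.06, 1.78] above ctxd18t in effector CD8 T-like cells, 1 of 6 expressed members called where 0.694% of genes were, and 1.17 [0.86, 1.53] above it in Treg-like cells, where 1.75% of genes were called. The 63 effector cells with an Ifngr2 UMI in combod18t were deeper than the rest, with a median of 17126 UMIs against 7604, and the part of depth was not tested.

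Monocyte-macrophage-like cells against NK-like cells gave all 9 genes called, where 61.9% of all genes were. Higher in monocyte-macrophage-like cells were Il18 at 7.28 ± 0.408 (edgeR adjusted p = 8.9e-22), Ifngr2 at 6.12 ± 0.384 (edgeR adjusted p = 2.54e-20) and Il12b (edgeR adjusted p = 0.00241), of which NK-like cells held 1 count in all. Lower were Ifng at -7.03 ± 0.59 (edgeR adjusted p = 1.12e-14), Tbx21, Il12rb2, Il18r1, Ifngr1 at -1.75 ± 0.2 (edgeR adjusted p = 4.21e-11) and Il12rb1 at -1.68 ± 0.349 (edgeR adjusted p = 3.93e-05).

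**Figure D5:**
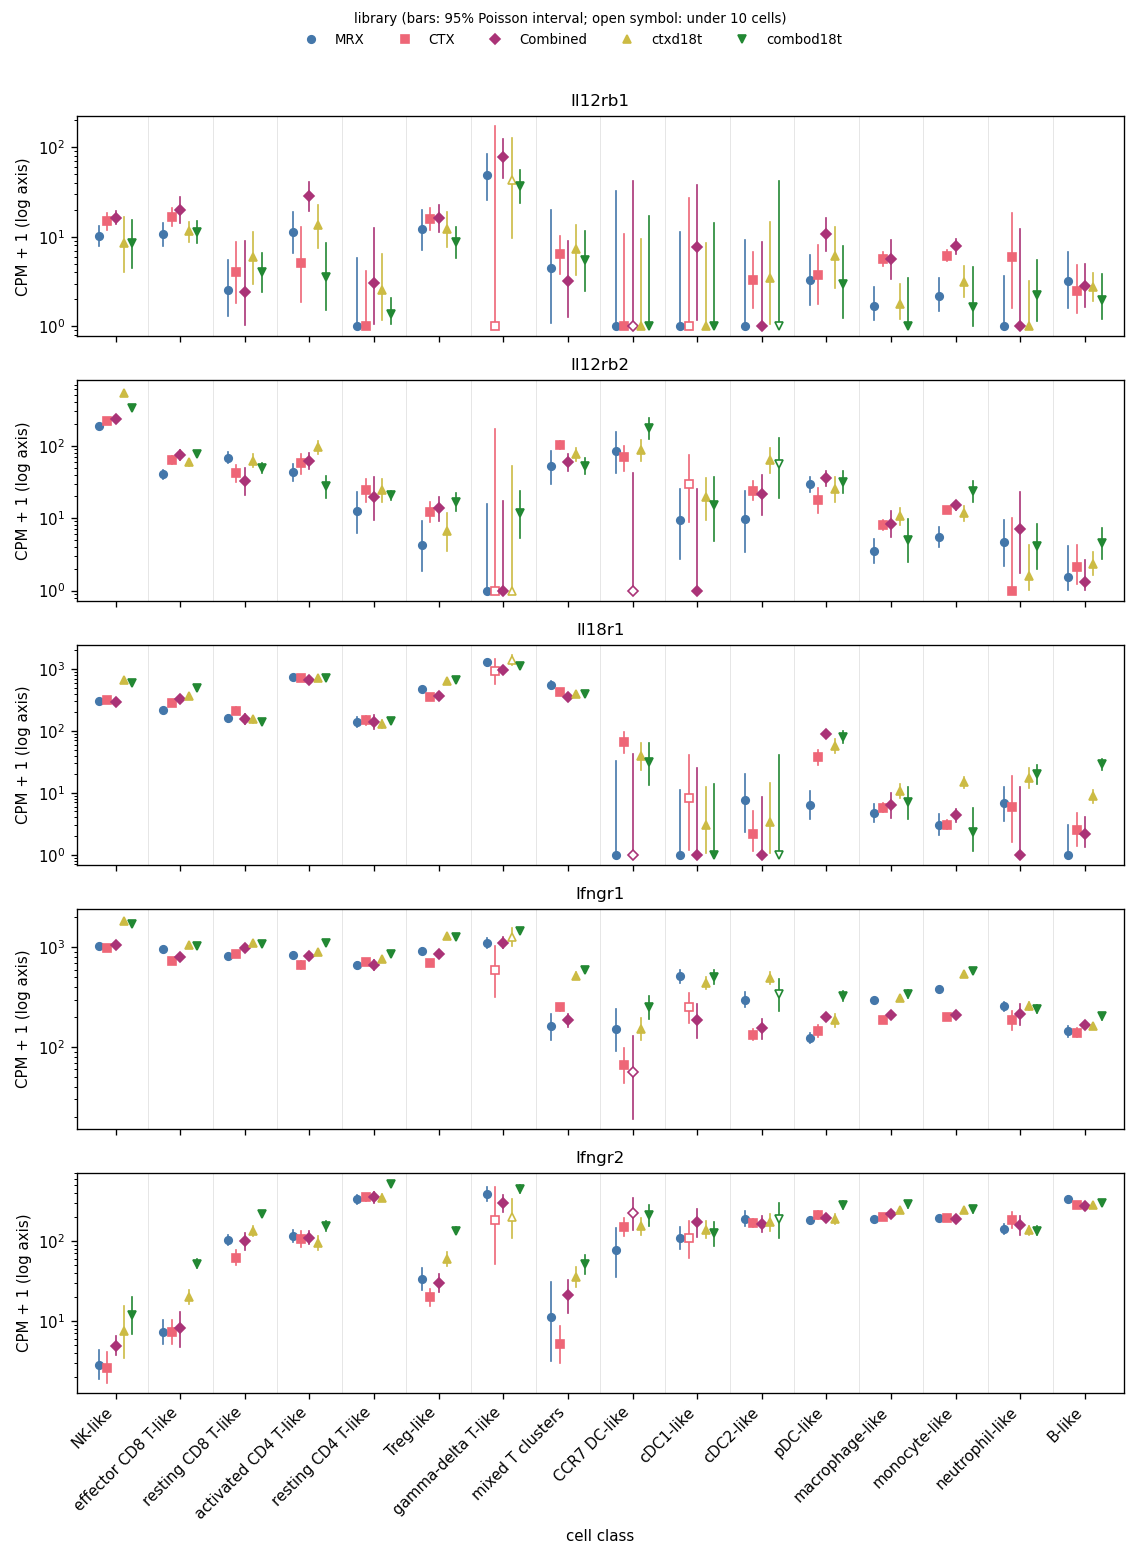
Levels of the 5 receptor genes (CPM + 1, log axis) in 16 cell classes (x axis), 1 symbol per library with its 95% Poisson interval, open where the sum rests on fewer than 10 cells. Ifngr1 is present in every class, while Ifngr2 falls to 1.54 CPM in NK-like cells of CTX, and Il12rb2 is highest in NK-like cells, at 185 to 531 CPM.

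The rest of the pathway was followed in a list of 33 genes. Between NK-like and CD8 T-like cells, 7 of the 33 were called higher and 6 lower, where 23.8% of all genes were called in either direction. Of 10 interferon gamma signalling genes 0 were higher and 3 lower, among them Nlrc5, an activator of MHC class I genes, at -2.19 ± 0.225 (edgeR adjusted p = 1.66e-11), and Irf9 at -0.52. Of 9 IL-12 family genes 3 were higher and 1 lower: Irf8 at 4.68 ± 0.373 (edgeR adjusted p = 3.42e-15), Tyk2, a kinase of the IL-12 receptor, at 0.93 ± 0.159 (edgeR adjusted p = 4.79e-06), Il12a, with 0 to 1.83 CPM in NK-like cells, and Il27ra at -0.64. Of 9 IL-18 genes, Il18rap was higher at 1.90 ± 0.343 (edgeR adjusted p = 1.79e-05) and Irak2 at 1.18, and Il18bp, which encodes the decoy for IL-18, was lower at -1.39. Of 5 partners of T-bet, Eomes at 2.23 ± 0.328 (edgeR adjusted p = 2.41e-07) and Runx3 at 0.74 were higher and Ifngas1, a non-coding RNA beside Ifng, was lower at -2.02.

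Between cDC1-like and monocyte-macrophage-like cells, 4 of the 33 were called higher and 9 lower, where 28.2% of all genes were called in either direction. Jak2 (1.36), Ciita (1.09), the activator of MHC class II genes, Tyk2 (1.37) and Irf8 (2.23), a transcription factor of cDC1 cells, were higher. Of the 9 IL-18 genes 5 were lower: Il18bp (-3.56), the inflammasome genes Casp1 (-1.93), Nlrp3 (-2.50) and Pycard (-1.89), and Irak2 (-2.21). Socs3 (-2.36), Zeb2 (-7.69), Runx3 (-0.71) and Il27, at 0 CPM in cDC1-like cells of all libraries, were the other 4. The edgeR adjusted p of these 13 ranged up to 0.0187, that of Ciita.

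Between the libraries of a pair the list gave few calls. In NK-like cells none of its 16 expressed genes was called in Combined against CTX, where Ifng was. In CD8 T-like cells Eomes was at 93.6 CPM in CTX and 46.2 in Combined, a ratio of -1.002, where 0.132% of genes were called, and Irf8 at 181 CPM for ctxd18t and 52.6 for combod18t, a ratio of -1.77 [-1.95, -1.62], where 1.98% were called. In monocyte-macrophage-like cells Socs1, the feedback inhibitor of interferon gamma signalling, stood at 74.8 CPM for ctxd18t and 27.8 for combod18t, a ratio of -1.40 [-1.77, -1.10], where 1.41% were called.

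In monocyte-macrophage-like cells the interferon gamma signalling list separated MRX from CTX and Combined more than Combined from CTX. In CTX against MRX, 4 of its 9 expressed genes were called higher and 0 lower, where 3.39% of all expressed genes were called, and in Combined against MRX again 4 of 9, where 6.21% were. Irf1, a transcription factor induced by interferon gamma, stood at 70.0 CPM in MRX, 197 in CTX, 226 in Combined, 210 for ctxd18t and 154 for combod18t, Socs1 at 20.3, 78.9, 146, 74.8 and 27.8, and Nlrc5 at 27.9, 59.3, 75.3, 81.0 and 74.8. MRX was the lowest of the 5 libraries for each, and the 2 comparisons share it. Because MRX lay largely in other monocyte-like clusters than CTX and Combined, the levels were also taken within each of the 4 clusters with at least 10 cells in all 3. Irf1, Socs1 and Nlrc5 were lower in MRX than in CTX and Combined in all 4, Irf1 standing at 93.5, 203 and 226 CPM in the Ly6i cluster, at 76.5, 307 and 304 CPM in the Vcan cluster and at 53.2, 174 and 209 CPM in the larger macrophage-like cluster. The log2 ratios of CTX to MRX fell short of 1 in the cluster led by Rsad2 and Cxcl11, at 0.79 for Irf1, 0.26 for Socs1 and 0.49 for Nlrc5, and for Nlrc5 also in the Ly6i cluster, at 0.56. Combined against CTX gave 0 of 9, where 0.31% of genes were called, with Socs1 at 0.88 [0.81, 0.97]. Il18bp and Casp1 of the IL-18 list were also called higher in CTX than in MRX, Il18bp from 31.6 to 102 CPM and Casp1 from 33.4 to 75.9 CPM. Within the Ly6i cluster Il18bp went from 53.85 to 97.9 CPM, short of a log2 ratio of 1. So did both genes in the cluster led by Rsad2 and Cxcl11, Il18bp from 79.85 to 115 CPM and Casp1 from 83.1 to 98.0. Elsewhere among these clusters both genes kept the size of a call. Irf1 was named after its values were seen.

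Over the 79 class sums and 8111 genes, the genes whose level was most like that of Ifng were Rgs16 (Pearson r = 0.856), Nkg7 (0.835), Cd160 (0.831), Fasl (0.801) and Gm17745 (0.80), and Tbx21 stood at 0.781. Those most like Il12b were Strip2 (0.813), Fscn1 (0.804), Polb (0.789), 4931406G06Rik (0.786) and Etv3 (0.782), of which Fscn1 is a marker used to name the CCR7 class. Those most like Il18 were Lrrc25 (0.882), Rasgrp4 (0.880), C130050O18Rik (0.871), Cd300c2 (0.865) and P2ry6 (0.856). The sums share libraries and classes, so these values are descriptions.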

How the data were processed

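Raw UMI counts per gene and cell were deposited by the authors, per the labels' protocols with Cell Ranger 9.0.1; GRCm39 and Seurat 5.2.0 are named in the submitters' processing notes. The counts are whole numbers and not normalised. From them, cells with at least 200 genes and at most 15% mitochondrial counts were kept. Scrublet (scanpy 1.11.5, expected rate 0.06) marked 0% to 0.112% of cells by its own threshold, so the top 5% by score in each library were removed instead (4.11% to 4.98%, with ties kept). Counts were scaled to 10000 per cell and logged, and 2000 variable genes gave 30 principal components, a graph of 15 neighbours and Leiden clusters (leidenalg 0.10.2, resolution 1), without integration. The 9 members and the pathway list were left out of the variable genes.

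A cluster was named by the class whose 5 best markers had the highest mean, each scaled to its highest cluster, with at least 3 markers in 10% of cells. Clusters scoring at least 0.5 times their best class in another, at over 1.5 times the median UMIs of their libraries, were set aside. T clusters with CD8 and CD4 scores within a ratio of 0.4 were called mixed, and a resting score of 0.5 marked resting clusters. Both values were chosen after seeing the data, as were the alternatives without the 5 cells with the most counts and within single myeloid clusters. The members and lists were chosen with earlier results of these data known.

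Counts were summed per class and library. Sums with at least 10 cells entered 1 fit in edgeR 4.0.16 (R 4.3.3, TMM, quasi-likelihood, library block); this left out CCR7 DC-like in Combined, cDC1-like in CTX, cDC2-like in combod18t and gamma-delta T-like in CTX and ctxd18t. DESeq2 1.42.0 was an alternative. Between libraries, with 1 per label, no p-value was computed; intervals are exact and, like the Poisson intervals, cover counting error only. Ratios of CPM + 1 understate changes of low genes. Members were all named. Pathway genes were named where called between NK-like and CD8 T-like or cDC1-like and monocyte-macrophage-like cells, or with a log2 ratio of 1 or more in size between Combined and CTX or combod18t and ctxd18t in NK-like, CD8 T-like or monocyte-macrophage-like cells, with the 5 genes most like Ifng, Il12b and Il18. A gene of the pathway list is not reported here by name. The edgeR fit was tested on simulated sums for NK-like against CD8 T-like cells. Total counts were 39820290 (MRX), 100733879 (CTX), 46174239 (Combined), 49001922 (ctxd18t) and 41889498 (combod18t).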

Additional observations from a re-analysis of the deposited data

Results flagged for a closer look

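The Ifng ratios of Combined to CTX and of combod18t to ctxd18t pointed in opposite directions in 2 classes. In activated CD4 T-like cells the log2 ratio of Combined to CTX was 1.18 and that of combod18t to ctxd18t was -1.07. In the mixed T clusters the 2 ratios were 1.35 and -0.41. Each rests on 1 library a label, and the difference between the pairs was not tested. The opposition rests on the d18 labels as given. CTX shared 34 cell barcodes with combod18t and Combined 21 with ctxd18t, and if the d18 labels were exchanged their ratios would turn sign and all 4 ratios would lie above 0. Without the 5 cells with the most counts in each library, the ratios of Combined to CTX were 0.05 and -0.48.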

How the results depend on the processing

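No paired analysis was possible because no label gives replicate numbers that pair libraries. Between classes the library was the block. Between treatments, a model of treatment and day over 4 libraries, which would take ctxd18t and combod18t as the treatments of CTX and Combined, was not run. Of 1182 recomputed values of single members between classes, 1129 kept their direction and side of the threshold, 33 gained a call, 18 lost one and 2 reversed: Ifng in CD8 against CD4 T-like cells (-0.058, finer clustering) and Il18r1 in CCR7 DC-like against cDC1-like cells (-4.39, finer clustering). Of 134 counts of called members, 14 moved by over 1.5 times. NK-like against CD8 T-like cells gave 5 in place of 3 with only these classes in the fit (7 of the 9 members tested) and at Leiden resolution 2, and CD8 against CD4 T-like cells gave 5 in place of 3 without a filter on low counts. CCR7 DC-like against cDC1-like cells gave 3 in place of 5 with only these classes, a fit that tested 4 of the 9 members. cDC1-like against cDC2-like cells gave 2 in place of 1 with the DESeq2 test or with clusters of mixed markers kept, and 0 at resolution 2. cDC1-like against monocyte-macrophage-like cells gave 2 with only these classes (5 members tested) and 0 with DESeq2's size factors, no library block or at least 30 cells a sum, and 0 to 1 without 1 library (0 without MRX, Combined or ctxd18t). The causes were not tested.

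Between Combined and CTX, Ifng in NK-like cells was 0.63 when CPM was averaged over cells and 1.29 without the 5 top cells. In effector CD8 T-like cells it was 0.10 after thinning and 0.86 at resolution 2. In the mixed T clusters it was 1.14 as the mean of cells, 1.12 after thinning, 1.53 at resolution 2 (where the class held other cells, 12 in Combined and 20 in CTX in place of 65 and 179), 1.49 with at least 500 genes per cell and -0.48 without the 5 top cells. Between combod18t and ctxd18t, Ifng in effector CD8 T-like cells was -0.85 as the mean of cells, -0.93 after thinning, -0.57 without removal of likely doublets and -0.69 without the 5 top cells, and in the mixed T clusters it was -0.10 at resolution 2, again over other cells. Il18r1 in pDC-like cells, 1.26 in Combined against CTX, was -0.51 without removal of likely doublets, and Il12b in CCR7 DC-like cells, CTX against MRX, was 0.034 without the 5 top cells, from 5 and 1 counts, too few to compare. In all, 1744 of 2031 library ratios moved by less than their counting interval. Depth limits the CCR7 DC-like, cDC1-like, cDC2-like and gamma-delta T-like classes, of 88 to 241 cells over 5 libraries, and the 106 and 112 NK-like cells of day 18.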

Other observations

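NK-like cells of both d18 libraries held more Il18rap and Stat4 transcript than those of the other 3. Il18rap stood at 159, 190, 178, 583 and 357 CPM in MRX, CTX, Combined, ctxd18t and combod18t, and Stat4, which carries the IL-12 signal, at 502, 427, 382, 1188 and 948 CPM. The chain Il12rb1 was not higher there, at 7.61 and 7.57 CPM in the d18 libraries (7 and 9 counts, with 95% Poisson intervals of 3.06 to 15.7 and 3.46 to 14.4, which cover the values of MRX and CTX) and at 9.21 to 15.3 CPM in the other 3. Il18rap and Stat4 were picked after their values were seen. The day and the sequencing run cannot be told apart, and the d18 values rest on 106 and 112 cells.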
